A study of Mus musculus with 8 samples.

Results

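Signal of *Trp53*, which encodes the transcription factor p53, and of 33 genes that it is known to switch on or that control it was measured in embryonic mouse hearts of the WT and SIRT1 KO genotypes. These 34 genes, of 19096 genes named on the array, were taken from a written list of p53 and its regulators and targets, and every non-control probe whose accession maps to a listed gene was kept. They had 60 probes, of which 57 could be tested. In 34 of 34 genes the brightest probe, the one with the highest mean log2 signal of its gene, was well above background on all 8 arrays. By role, the genes were *Trp53* itself, 3 regulators of p53, 11 genes of cell cycle and growth arrest, 12 genes of cell death, and 7 genes of DNA repair and metabolism.

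The groups were hearts of 4 WT embryos and of 4 embryos labelled SIRT1 KO, both on the C57BL/6J strain and both taken at E18.5, shortly before birth. The SIRT1 KO is a germ-line, whole-body deletion, so the deletion is not limited to 1 cell type of the heart or to the heart. Embryos came from crosses of heterozygous parents. The paper used hearts of both sexes, but the labels give no sex for the hearts on the arrays. RNA of 1 heart was hybridized to each one-color Agilent mouse array. A signal is given below as log2 of the spot intensity minus the 75th percentile of its array, so that a value of 0 lies at that percentile, and a log2 fold change is the SIRT1 KO mean minus the WT mean. Different probes bind with different strength, so a signal was compared between hearts only.

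p53 is held at a low level in unstressed cells, mainly by the ubiquitin ligase MDM2 and its relative MDM4. When DNA damage or another stress frees it, p53 binds a pair of decamer motifs near its target genes and raises genes that stop the cell cycle, repair DNA, adjust metabolism or kill the cell. *Mdm2* and the phosphatase gene *Ppm1d* are themselves targets and close feedback loops. SIRT1 removes acetyl groups from p53, which lowers the activity of p53 as a transcription factor. The array measured mRNA only, not the amount or the acetylation of p53 protein.

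Letters that match the decamer motif of p53 could be found near the start of several of these genes. RefSeq promoter windows, from 250 bases before to 50 bases after a gene's start (build GRCm38.p6), were held for 26 of the 34 genes and searched on both strands for the p53 decamer motif. The motif was found in 11 of these 26 (42.3%), against 9.55% of the 27025 genes with a window. A pair of decamers up to 13 bases apart was found in 1 of these 26, *Cdkn1a*, and in 20 genes in all (0.074%). The 250 bases before the start of *Cdkn1a* and the decamers of p53 itself and of its feedback regulators are printed here, because these genes make up the core loop that the results below follow. Capitals mark the decamers, with the printed strand read 5′ to 3′.
Cdkn1a, chr17:29090729-29090978 (+ strand): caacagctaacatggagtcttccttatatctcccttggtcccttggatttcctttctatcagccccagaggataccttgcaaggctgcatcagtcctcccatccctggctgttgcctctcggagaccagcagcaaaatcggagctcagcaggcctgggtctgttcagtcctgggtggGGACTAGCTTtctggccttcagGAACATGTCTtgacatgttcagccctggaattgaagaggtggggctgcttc
Trp53, chr11:69580274-69580303 (+ strand): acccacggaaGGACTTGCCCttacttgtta
Mdm2, chr10:117710925-117710954 (- strand): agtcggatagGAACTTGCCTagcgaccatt
Ppm1d, chr11:85311112-85311141 (+ strand): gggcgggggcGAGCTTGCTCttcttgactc
The other genes with the motif were *Aen*, *Bax*, *Ccng1*, *Ei24*, *Gadd45a*, *Polk* and *Sesn1*. A match shows the letters only and is not a measured binding site, and sites outside the window were not searched. The median log2 fold change was -0.02 over the 11 genes with the motif and 0.03 over the 15 whose window held none.

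Over the whole list, p53 genes did not move one way. At an adjusted p under 0.05 (limma with Benjamini-Hochberg adjustment over the 25615 probes tested), *Trp53* and *Sesn2* were higher in the hearts labelled SIRT1 KO and *Cdkn1a* and *Pmaip1* were lower. These are 4 of 34 genes (11.8%), counted by the brightest probe, against 4.58% of the 13594 genes tested. By direction, 2 of 34 were higher against 3.69% of all genes, and 2 of 34 were lower against 0.897%. This split depended on the scaling, since 1 was higher and 2 were lower with arrays scaled on their medians, and 1 (*Trp53*) was higher and 9 were lower without scaling (*Aen*, *Bax*, *Btg2*, *Ccng1*, *Cdkn1a*, *Perp*, *Phlda3*, *Pmaip1* and *Tigar*). Over the whole array 1250 of the 25615 probes were called, against 1904 with median scaling and 6352 without scaling. Higher in SIRT1 KO were 81.4% of these calls, against 35.5% with median scaling and 10.1% without scaling. All-probe counts of the p53 genes were 4 of 57 (7.02%) against 4.88% of probes. They were 6 of 57 with median scaling and 16 of 57 without scaling. The count of 4 genes was 1 without WT 1, WT 2, WT 3 or SIRT1 KO 1, 2 without WT 4, SIRT1 KO 2 or SIRT1 KO 4, and 3 without SIRT1 KO 3, and it was 1 when probes at background were also tested.

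The other measures lay near those of all genes. Of the 34 genes, 15 had a log2 fold change above 0 (44.1%), against 48.4% of all genes, with a median of -0.01 in both. The median size of the change, whatever its sign, was 0.121 over the 34 genes and 0.121 over all genes. At an unadjusted p under 0.05 there were 8 of 34 genes (23.5%) against 20.4%, and 14 of 57 probes (24.6%) against 21.5%. The hearts of the genotypes did not overlap for 5 of 34 genes (14.7%) against 14% of all genes, with 3 higher in SIRT1 KO (8.38% of all genes) and 2 lower (5.61%). In the exact two-sided permutation test these 5 genes have p = 0.0286, the smallest that 4 against 4 hearts allow. For probes this was 9 of 57 (15.8%) against 13.7%. The number of the 34 genes above 0 depended on the scaling, since it was 7 when arrays were scaled on their medians and 5 without scaling, settings that moved the median of all genes to -0.14 and -0.23. These settings shift every gene of an array by the same amount, so the distance of the p53 genes from that median could not change.

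The highest and lowest values of the genes were spread over the hearts. For each of the 34 genes 1 of the 8 hearts had the highest signal, and this heart was WT 3 for 7 genes and SIRT1 KO 1 for 8, the most of their genotypes. The lowest signal was found most often in WT 2, for 7 genes, and in SIRT1 KO 3, for 5. The median within-genotype SD of the 34 genes was 0.126 in WT and 0.116 in SIRT1 KO.

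**Figure D1:**
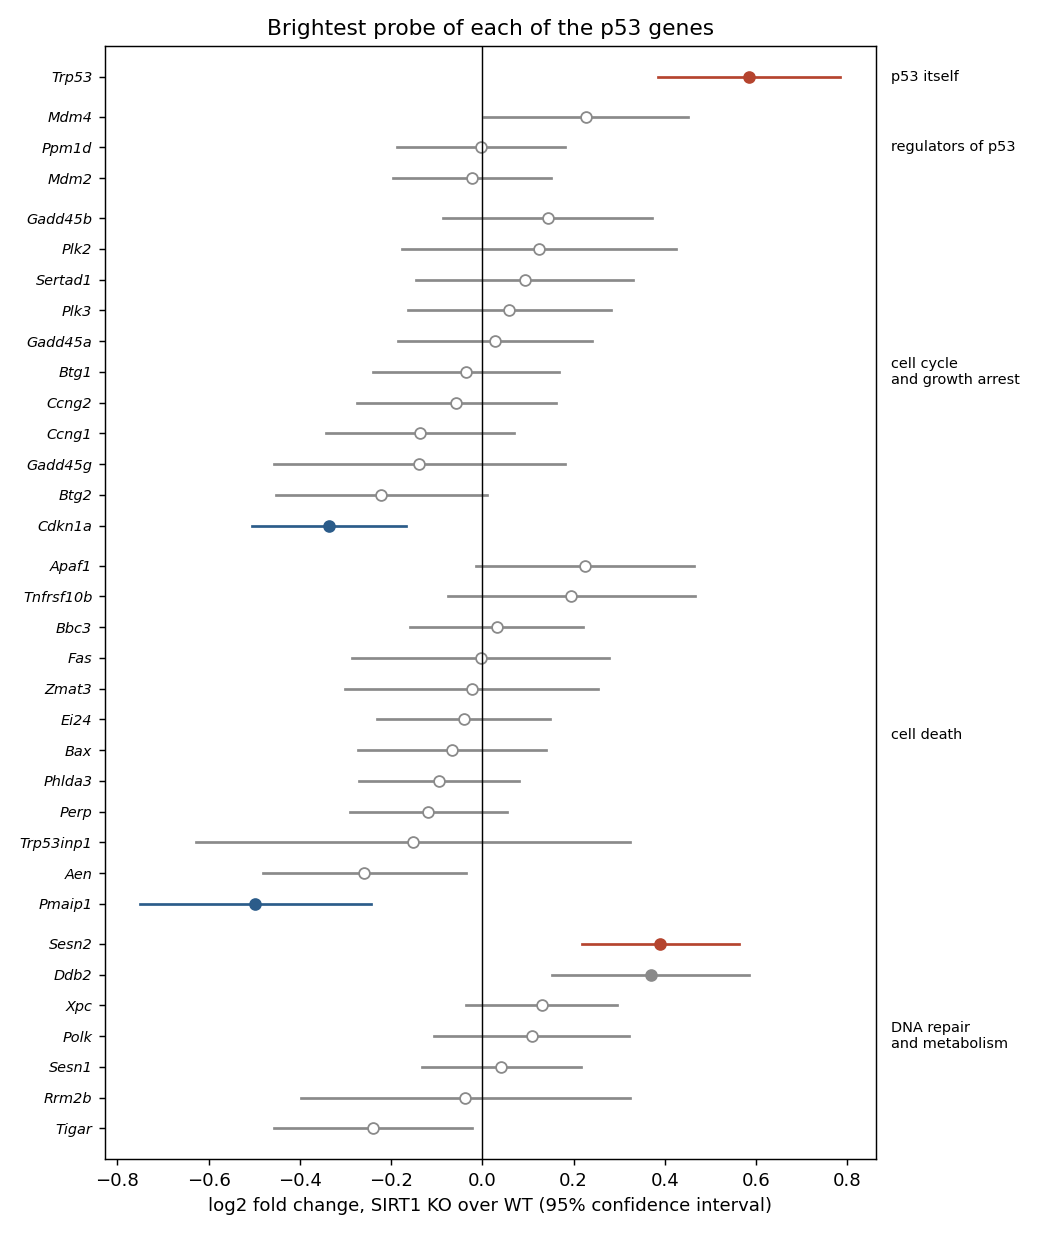
Log2 fold change, SIRT1 KO over WT, of the brightest probe of each of the 34 genes, grouped by role, with the 95% confidence interval from limma (n = 4 hearts per genotype). Red marks genes higher and blue marks genes lower at an adjusted p under 0.05, grey marks the other 30, and filled points are genes whose hearts did not overlap between genotypes; *Trp53*, *Sesn2* and *Ddb2* lie to the right of 0 and *Cdkn1a* and *Pmaip1* to the left.

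The arrays themselves set limits on all of these comparisons. The 4 WT arrays were on 1 slide and the 4 SIRT1 KO arrays on the other, scanned on different days, so genotype, slide and scan day cannot be told apart. *Sirt1* has 2 probes, which read 0.54 higher in the hearts labelled SIRT1 KO (standard error, SE, 0.11, limma adjusted p = 0.0323) and 0.11 lower (standard error 0.11, adjusted p = 0.589), so the genotypes rest on the labels. Whether these probes lie inside the deleted part is not given in the sources used here, and a probe outside it would not check the labels. If the labels were exchanged every direction given here would turn. Each array had between 59.5% and 64.9% of its 41174 probes well above background. The 75th percentile was 939 to 1033 intensity units in WT and 777 to 906 in SIRT1 KO, so every SIRT1 KO array was dimmer. Heart muscle genes were abundant in every heart, since 10 of 10 listed cardiomyocyte genes were tested, with summed signals of 1813 to 2193 times the 75th percentile, and 0 passed the threshold. Of the markers of other tissues, 8 of 8 tested liver genes were above 0 (median log2 fold change 1.32, 0 past the threshold), and their summed signal on the same scale was 11.4 to 28.0 in WT and 13.4 to 120 in SIRT1 KO. The summed erythroid signal was 220 to 261 in WT and 174 to 216 in SIRT1 KO, with 4 of 7 erythroid genes above 0 and 1 past the threshold. All 5 endothelial genes were below 0 without passing the threshold, with sums of 35.8 to 41.3 and 31.3 to 37.7. Without scaling 3 of them passed, beside 6352 of the 25615 probes over the whole array. Leukocyte sums were 4.09 to 5.99 and 4.01 to 7.05, and 0 of 9 leukocyte, 0 of 5 fibroblast and 0 of 2 thymocyte genes passed. No liver, erythroid or leukocyte gene on the array was at background on all arrays, while 3 of 5 lung genes were (*Nkx2-1*, *Sftpa1* and *Sftpb*). The part of these cells in the p53 results was not tested.

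*Trp53* mRNA was higher in the SIRT1 KO hearts on its brighter probe. Its signal there was -1.05, -1.22, -1.12 and -0.93 in the WT hearts and -0.61, -0.49, -0.36 and -0.51 in the SIRT1 KO hearts. Every SIRT1 KO heart lay above every WT heart. The log2 fold change was 0.59 (SE 0.09, limma adjusted p = 0.00741), so the signal was 50.1% higher. In a whole heart, more cells with the transcript and more transcript per cell cannot be told apart. It was 0.45 with median scaling and 0.37 without scaling, the last a signal 28.9% higher. With 1 heart left out the change stayed between 0.54 and 0.64, and the adjusted p stayed under the threshold in all 18 alternatives, with a highest value of 0.0329.

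The other *Trp53* probe did not pass the threshold. Although it was printed in 10 spots on each array, it read -1.73, -1.88, -1.72 and -1.63 in WT and -1.49, -1.48, -1.72 and -1.81 in SIRT1 KO. SIRT1 KO 1 and 2 were the highest of the 8 hearts on it, and SIRT1 KO 3 and 4 lay within the WT range. Its log2 fold change was 0.12 (95% confidence interval -0.11 to 0.34, limma adjusted p = 0.539), and it turned to -0.02 with median scaling and to -0.10 without scaling. Within a heart the brighter probe minus the other was 0.59 to 0.71 in WT and 0.88 to 1.36 in SIRT1 KO, with no overlap, a comparison chosen after the values were seen and so given without a p. The probe sequences were not used here, so the part of the transcript that each probe reads is not given. With the mean of both probes *Trp53* was 0.35 higher (limma adjusted p = 0.0329).

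**Figure D2:**
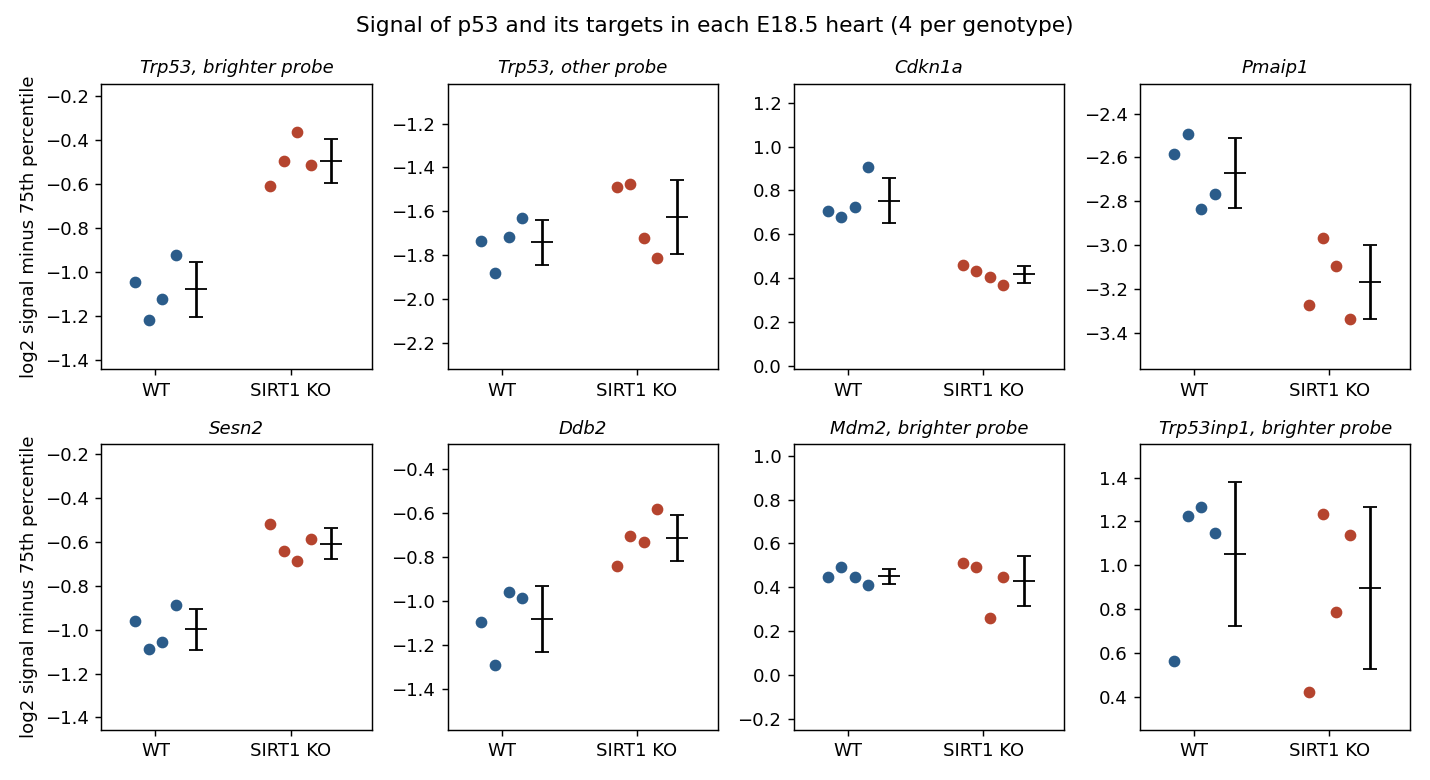
Signal (log2 minus the 75th percentile of the array) in each of the 4 WT and 4 SIRT1 KO hearts, with 1 panel per probe and with bars for the mean ± SD. The genotypes are apart for the brighter *Trp53* probe, *Cdkn1a*, *Pmaip1*, *Sesn2* and *Ddb2*, and they overlap for the other *Trp53* probe, *Mdm2* and *Trp53inp1*. The vertical axes differ in their offset and span the same number of log2 units.

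The genes that hold p53 in check did not pass the threshold with the scaling used here. *Mdm2*, whose product marks p53 for degradation and which is itself a p53 target, read 0.45, 0.49, 0.45 and 0.41 in WT and 0.51, 0.49, 0.26 and 0.45 in SIRT1 KO on its brighter probe. The SIRT1 KO hearts spanned the whole WT range, with SIRT1 KO 3 the lowest of all. The log2 fold change was -0.02 (95% confidence interval -0.20 to 0.15), and it was 0.03 without SIRT1 KO 3. On the dimmer *Mdm2* probe it was 0.01 (95% confidence interval -0.24 to 0.26). *Mdm4*, which binds p53 and blocks its activity, had 5 probes, and 5 of 5 were above 0, at 0.02 to 0.23 on the log2 scale, but 3 of 5 with quantile normalization and 2 of 5 with median scaling or without scaling. None passed the threshold, and on 1 of the 5 the hearts did not overlap, with a log2 fold change of 0.23 (limma adjusted p = 0.140). *Ppm1d*, a phosphatase that turns the p53 response off, had log2 fold changes of 0.00 and -0.20 on its probes, and the dimmer one passed without scaling (-0.42, limma adjusted p = 0.0198).

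Among the 11 genes of cell cycle and growth arrest, 5 were above 0 and 6 below, beside 48.4% of all genes above 0. With median scaling 1 was above 0 and without scaling 0, settings that moved the median of all genes to -0.14 and -0.23. The threshold was passed by 1 gene (9.09%, against 4.58% of all genes). This was *Cdkn1a*, which encodes p21, the inhibitor of cyclin-dependent kinases through which p53 stops the cell cycle. Its signal was 0.71, 0.68, 0.72 and 0.90 in WT and 0.46, 0.43, 0.41 and 0.37 in SIRT1 KO. Every SIRT1 KO heart lay below every WT heart, and WT 4 was the highest. The log2 fold change was -0.34 (SE 0.07, limma adjusted p = 0.0372), so the signal fell by 20.8%. The probe was printed in 10 spots on each array, and the SD over the spots was between 0.061 and 0.099. Leaving out any 1 of the 8 hearts took the adjusted p above the threshold, to between 0.0506 and 0.0928, while the change stayed between -0.36 and -0.29. It was -0.47 with median scaling and -0.56 without scaling.

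The antiproliferative gene *Btg2* was at -0.22, -0.31 and -0.26 on its 3 probes, none past the threshold, and all 3 were below 0 under each scaling tried. On the probe at -0.31 every SIRT1 KO heart lay below every WT heart (limma adjusted p = 0.116), and this probe passed with median scaling (-0.45, limma adjusted p = 0.0325). All 3 passed without scaling, at -0.44 to -0.53. Its relative *Btg1* was at -0.04 and -0.01. *Ccng1*, which encodes cyclin G1 and is among the most widely induced p53 targets, was at -0.14 on its brighter probe and -0.25 on the other, with limma adjusted p = 0.415 and 0.168. *Ccng2*, which encodes a related cyclin, was at -0.06. The 3 *Gadd45* genes, sensors of DNA damage and growth arrest, did not share a direction on their brightest probes, at 0.03 for *Gadd45a*, 0.14 for *Gadd45b* and -0.14 for *Gadd45g* (all 3 were below 0 without scaling). The polo-like kinase genes *Plk2* and *Plk3* were at 0.12 and 0.06, and *Sertad1*, whose product binds a cyclin-dependent kinase, was at 0.09. On the brightest probe the hearts of the genotypes did not overlap for 1 of the 11 genes of growth arrest, *Cdkn1a* (9.09%, against 14% of all genes).

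Genes of DNA replication and cell division, steps that p21 restrains, were read from a separate list of 22. In the 21 that could be tested the log2 fold change was below 0 in 21 of 21, from -0.52 to -0.01 with a median of -0.21, and 0 passed the threshold, against 4.58% of all genes. At an unadjusted p under 0.05 (limma) there were 3 of 21 (14.3%), against 20.4% of all genes. The hearts of the genotypes did not overlap for 0 of 21, against 14% of all genes. All 21 were also below 0 under the other scalings and background correction. Without scaling 13 passed, beside 6352 of the 25615 probes over the whole array. Their summed signal was 194 to 264 in WT and 197 to 271 in SIRT1 KO.

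Among the 12 genes of cell death, 9 were below 0 and 3 above, beside 48.4% of all genes above 0. Under the other scalings and background correction 8 to 11 were below. The median of all genes moved to -0.14 with median scaling and -0.23 without scaling. The threshold was passed by 1 gene (8.33%, against 4.58% of all genes). This was *Pmaip1*, which encodes NOXA, a BH3-only protein that blocks survival proteins of the BCL2 family. Its signal was -2.58, -2.49, -2.84 and -2.77 in WT and -3.27, -2.97, -3.10 and -3.34 in SIRT1 KO. The genotypes did not overlap, but SIRT1 KO 2 lay close below WT 3. The log2 fold change was -0.50 (SE 0.11, limma adjusted p = 0.0389), so the signal fell by 29.2%. The adjusted p rose above the threshold when WT 1, 2, 3 or 4 or SIRT1 KO 1 or 4 was left out, up to 0.103, and the change stayed between -0.56 and -0.44. With normexp, a model-based background correction, it was -0.27 (limma adjusted p = 0.0646). It also missed the threshold with the study's own kind of test, the analysis of variance (adjusted p = 0.0936), and with array weights (limma adjusted p = 0.0520).

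The other genes that act on mitochondria in cell death did not pass the threshold. *Bbc3*, which encodes PUMA, another BH3-only protein, was at 0.03 (95% confidence interval -0.16 to 0.22). *Bax*, which encodes the protein that opens the outer mitochondrial membrane, was at -0.07 (95% confidence interval -0.27 to 0.14) on a probe with 10 spots. *Apaf1*, the scaffold that activates caspases once that membrane is open, was at 0.22 on its brightest probe and at -0.17 and 0.06 on the others, the last of which was above background on 3 WT arrays and 1 SIRT1 KO array only.

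The death receptor gene *Fas* was at 0.00 on its brighter probe, printed in 10 spots, where WT 1 and SIRT1 KO 1 were the lowest hearts, at -1.54 and -1.41. On its dimmer probe, printed in 1 spot, the SIRT1 KO hearts all lay below the WT hearts, with a log2 fold change of -0.27 (limma adjusted p = 0.0614). This probe passed in 5 of 17 alternatives, at -0.43 (quantile normalization), -0.40 (median scaling), -0.49 (unscaled) and -0.27 (analysis of variance, array weights), and it turned to 0.02 with normexp background correction. *Tnfrsf10b*, the receptor for the death ligand TRAIL, was at 0.20 and 0.03 on its tested probes, and another probe was above background on 0 arrays. *Aen*, which encodes a nuclease of apoptosis, was at -0.26 on its brighter probe (limma adjusted p = 0.174). This probe passed at -0.38 with normexp (limma adjusted p = 0.0303) and at -0.48 without scaling (limma adjusted p = 0.0160). The dimmer *Aen* probe was at -0.03, at 0.12 with normexp and at -0.25 without scaling, and did not pass in these fits. *Perp*, which encodes a membrane protein of cell junctions, *Phlda3*, whose product holds back AKT, *Ei24*, which encodes a protein of the endoplasmic reticulum, and *Zmat3*, which encodes an RNA-binding protein, were between -0.12 and -0.02. *Trp53inp1*, which encodes a stress protein that acts with p53, had the widest interval of the 34 genes, -0.63 to 0.32 around a log2 fold change of -0.15. Its lowest hearts were SIRT1 KO 1 at 0.42 and WT 1 at 0.56, with the other 6 between 0.79 and 1.26.

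Of the 7 genes of DNA repair and metabolism 5 were above 0, beside 48.4% of all genes. The group's median log2 fold change was 0.11 against -0.01 over all genes. With median scaling and without scaling 2 of 7 were above 0, and the group's median was -0.03 and -0.11 against -0.14 and -0.23 over all genes. The 1 gene past the threshold (14.3%, against 4.58% of all genes) was *Sesn2*. It encodes sestrin 2, which restrains mTORC1 signaling when amino acids are short or the cell is stressed. Its signal was -0.96, -1.09, -1.06 and -0.89 in WT and -0.52, -0.64, -0.69 and -0.58 in SIRT1 KO. Every SIRT1 KO heart lay above every WT heart. The log2 fold change was 0.39 (SE 0.08, limma adjusted p = 0.0229), or 1.31-fold. The adjusted p rose above the threshold without WT 1, 2 or 3 or without SIRT1 KO 1 or 2, up to 0.0769, and the change was 0.26 with median scaling (limma adjusted p = 0.0812) and 0.17 without scaling (limma adjusted p = 0.207). Its relative *Sesn1* was at 0.04, 0.12 and 0.26 on 3 probes, none past the threshold, and 1 of 3 was above 0 with median scaling or without scaling.

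*Ddb2*, which encodes the subunit that finds UV-damaged DNA, read -1.10, -1.29, -0.96 and -0.99 in WT and -0.84, -0.70, -0.73 and -0.58 in SIRT1 KO. The genotypes did not overlap. Its log2 fold change of 0.37 (SE 0.10, limma adjusted p = 0.0639) missed the threshold, and it passed in 1 of 18 alternatives, normexp background correction. *Xpc*, which acts next to it in nucleotide excision repair, was at 0.13 and 0.09. *Polk*, a polymerase that copies past damaged bases, was at 0.11 on its tested probe, and its other probe was above background on 0 arrays. *Rrm2b*, a subunit of the enzyme that makes deoxyribonucleotides, was at -0.04.

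*Tigar*, which encodes a phosphatase that lowers glycolysis, was below 0 on both tested probes and under each scaling tried. It was at -0.24 on its brighter probe (limma adjusted p = 0.193), with SIRT1 KO 3 inside the WT range. On the other tested probe it was at -0.31 (limma adjusted p = 0.0798), with every SIRT1 KO heart below every WT heart, and it passed with median scaling (-0.44, limma adjusted p = 0.0320). Without scaling both passed, at -0.46 and -0.53. The remaining *Tigar* probe was above background on 2 arrays and was not tested.

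**Figure D3:**
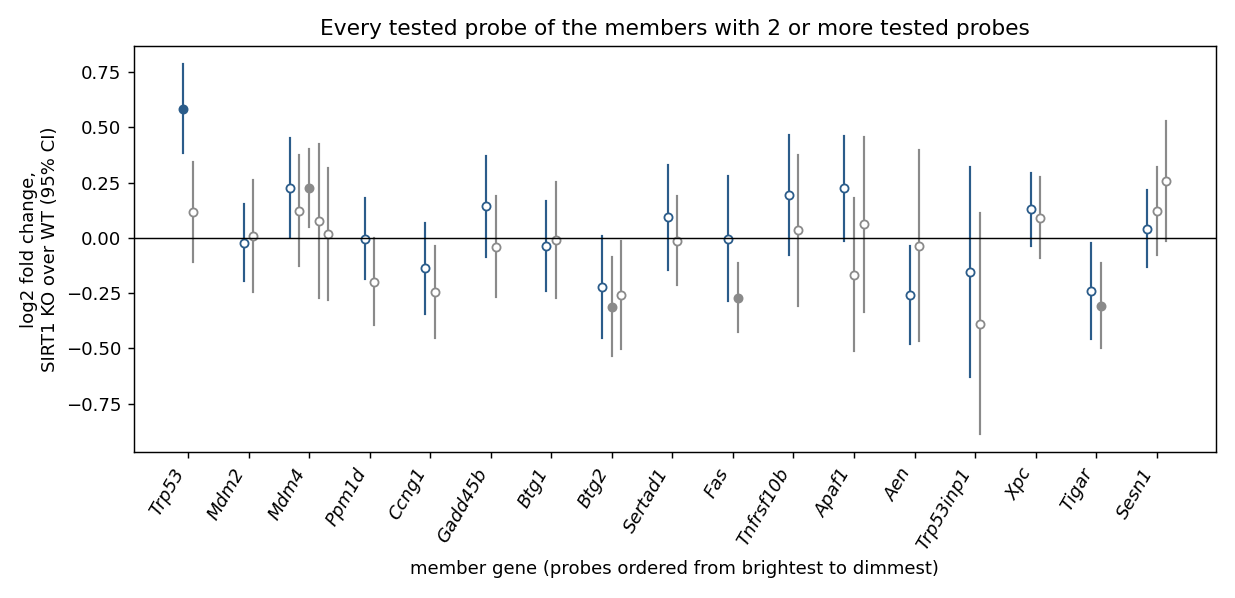
Log2 fold change, SIRT1 KO over WT, with the 95% confidence interval of every tested probe of the 17 genes with 2 or more tested probes, ordered within a gene from the brightest probe (blue) to the dimmest (grey). Filled points are probes whose hearts did not overlap between genotypes; for *Trp53* the brighter probe is at 0.59 and the other at 0.12, while 13 of the 17 genes have 1 sign on all tested probes.

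Of the 30 genes that missed the threshold, 28 had a 95% confidence interval inside -0.5 to 0.5 on the log2 scale, and the intervals of all 30 lay between -0.63 and 0.59. A p that misses the threshold does not show that these genes were equal in the 2 genotypes. The number of arrays limits the precision, with standard errors of the brightest probes from 0.073 to 0.210.

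**Figure D4:**
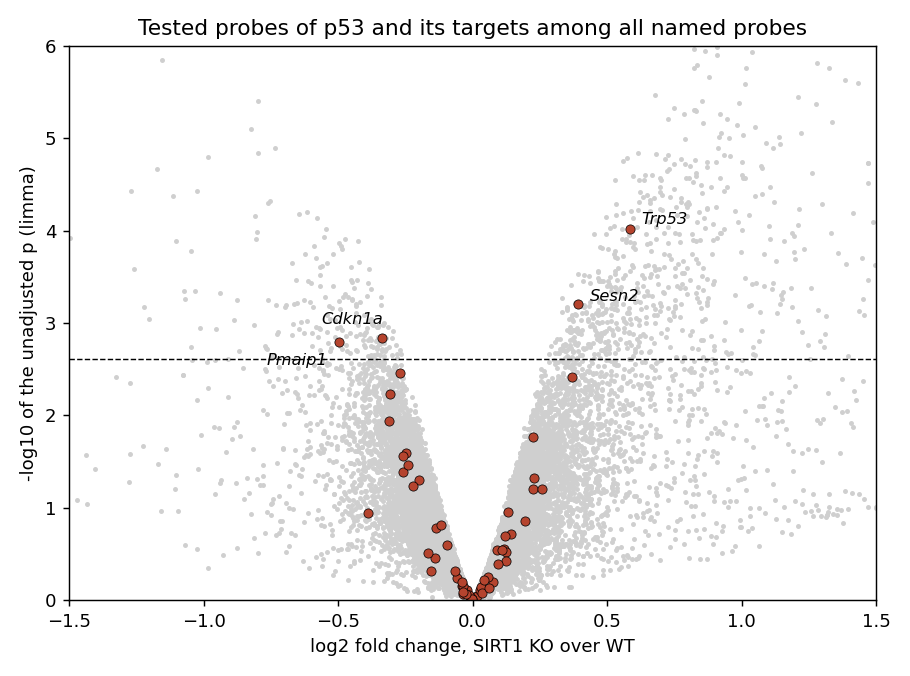
Each named tested probe by its log2 fold change, SIRT1 KO over WT, and by -log10 of its unadjusted limma p, with the tested probes of the p53 genes in red and all others in grey. The dashed line is the p at which the adjusted p reaches 0.05, 83 of 20230 probes lie outside the axes, and the 4 labelled genes are the ones above the line.

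Other genes of the p53 pathway were read from a pair of lists of genes outside the 34. Of 39 genes that act on p53, such as kinases, acetyltransferases and ubiquitin ligases, 36 were tested, with 22 above 0, 14 below and a median log2 fold change of 0.03. The one past the threshold was *Sirt1* itself, described above, and *Cdkn2a*, whose ARF product frees p53 from MDM2, was at background on all 8 arrays. Of 54 further targets 45 were tested, with 20 above 0, 25 below and a median of -0.03. One of these, *Cpt1c*, which encodes a brain-type relative of carnitine palmitoyltransferase, passed the threshold at 0.35 (SE 0.08, limma adjusted p = 0.0431). It passed in 4 of 17 alternatives and missed the threshold under each other scaling, at 0.28 with quantile normalization (limma adjusted p = 0.0737), with the analysis of variance (adjusted p = 0.0655) and without any 1 heart but SIRT1 KO 3. Passing genes were thus 1 of 36 and 1 of 45, beside 4.58% of all genes. With median scaling 7 of 36 and 7 of 45 were above 0, and without scaling 4 of each. Without scaling 7 of each passed the threshold, beside 6352 of the 25615 probes over the whole array.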

How the data were processed

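Hearts of 4 WT and 4 SIRT1 KO embryos were measured on one-color Agilent arrays, 1 heart per array. The authors deposited the Feature Extraction intensity of every spot, background-subtracted and not scaled between arrays (software version 12.0.0.7 per the file headers); their table of processed values held the same intensity in 100% of spots. Log2 of this signal was taken here, without control and outlier spots, relative to each array's 75th percentile over non-control spots, and replicate spots of 1 probe were averaged. Accessions were matched to RefSeq gene names (GRCm38.p6), which named 28223 of 41174 probes (68.5%).

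Testing covered the 25615 probes that were well above background on 4 or more of the 8 arrays and was done with limma 3.58.1 (lmFit and eBayes, R 4.3.3) and Benjamini-Hochberg adjustment at 0.05, with Python 3.11.15 for all else. For single values an exact permutation test (two-sided) was used. The p-values rest on the spread between these hearts within a genotype, and so within a slide. They hold no measure of the spread between slides. The study's own test, an analysis of variance with Benjamini-Hochberg correction, was an alternative, as were other scalings, background corrections, filters, array weights, a replicate block, the mean of a gene's probes and each heart left out in turn.

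On simulated arrays with 200 of 25535 probes changed by a log2 fold change of 1, limma recovered 83.5%, all in the right direction, with 5.11% of its calls unchanged probes, and the analysis of variance recovered 67% with 9.46%. The changes of the p53 genes are smaller than the simulated one, so these shares do not give the recovery of such changes. The 34 genes and the pathway and marker lists, compiled from general knowledge, were chosen with earlier results of these data known. Values in every heart are given for *Trp53*, *Cdkn1a*, *Mdm2* and each of the 34 genes whose brightest probe passed the threshold or whose hearts did not overlap on it. From the pathway lists, genes past the threshold are named. Groups come from the labels alone.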

Additional observations from a re-analysis of the deposited data

Results flagged for a closer look

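In 5 of the 68 groups of 4 hearts checked (34 genes in 2 genotypes, brightest probe), 1 heart lay farther from the others than Dixon's 95% critical value allows, and chance gives this in about 1 in 20 groups. All 5 were WT. *Trp53inp1* was 0.5631 in WT 1 against 1.149 to 1.264 in the other 3 hearts, and *Fas* was -1.544 in the same heart against -1.12 to -1.056. *Gadd45g* was 4.346 in WT 4 against 4.535 to 4.571, and *Rrm2b* was -4.059 in the same heart against -3.722 to -3.669. *Phlda3* was 4.189 in WT 3 against 4.336 to 4.343. None of these 5 genes passed the threshold between genotypes.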

How the results depend on the processing

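Of the 4 p53 genes past the threshold, *Trp53* (brightest probe) passed in all 18 alternatives, *Sesn2* in 10, *Cdkn1a* in 8 and *Pmaip1* in 8, and none of the 4 changed direction. The count of p53 genes called was 10 without scaling and 1 with no filter on dim probes, with 16 and 1 probes, and 1 to 3 genes and 1 to 4 probes with 1 heart left out. Over the whole array 1250 probes were called, against 1904 with median scaling, 6352 without scaling, 2566 with normexp, 546 with the analysis of variance, 2131 with array weights, and 657 to 1825 with 1 heart left out. Of these calls 81.4% were higher in SIRT1 KO, against 63.9% (quantile), 35.5% (median) and 10.1% (none) under the other scalings. The median of the p53 genes was -0.1458 with median scaling, -0.2325 without scaling and -0.02926 to 0.02956 with 1 heart left out. Examples of values that changed sign are the dimmer *Trp53* probe (-0.01687 with median scaling, -0.1036 without scaling), *Mdm2* (0.008403 with normexp, 0.01111 with array weights, -0.04987 to 0.03301 with 1 heart left out) and the dimmer *Fas* probe (0.02354 with normexp), and none passed the threshold there. Probes of *Mdm4* turned as well, at -0.1816 and -0.0795 with quantile normalization. Of all 57 probes, 8 changed sign with quantile normalization, 17 with median scaling, 19 without scaling, 10 with normexp, 6 with array weights and 3 to 10 with 1 heart left out, none of them a probe past the threshold before or after. The causes were not tested. With the replicate number as a block (replicate block) 1185 probes were called and *Cdkn1a* missed the threshold (adjusted p = 0.08, limma), while *Trp53*, *Sesn2* and *Pmaip1* passed; the deviations of same-numbered hearts correlated by 0.204, 0.207, 0.056 and 0.141, over 0.1 in 3 of 4, and 8 of 8 hearts correlated best with their own number, a hint from the data that the labels do not state, so the numbers were not taken as pairs. A slide block was not run, because each slide holds 1 genotype, and the table of processed values was not run, because it equals the scanner values.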
